A study of Mus musculus with 8 samples.

Results

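Pancreatic lymph nodes of Deaf1 knockout mice at 12 weeks of age were described from 3 of the 8 arrays in the series, which were chosen by their titles. On each array RNA of 1 knockout node was labelled with Cy5 and RNA of a pool of 3 wild-type littermates of that age with Cy3. Both genotypes were BALB/c, and the other 5 arrays held knockout nodes of 4 weeks (2 arrays, with a pool of 2 mice) and of 30 weeks (3 arrays, with a pool of 3 mice). Values are log2 ratios of knockout over pool, so that a ratio of 1 is a doubling of brightness in the knockout. Of 18408 genes tested, 17683 lay on autosomes, and the 7593 autosomal genes whose ratio had the same sign on all 3 arrays are described here (4301 higher and 3292 lower in the knockout, together 42.9% of autosomal genes). A gene is called where the limma test over all 8 arrays gave a Benjamini-Hochberg adjusted p under 0.05. Whole nodes were used, so fewer cells of a type and less RNA per cell cannot be told apart.

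DEAF1 is a transcription factor with a SAND domain, through which it binds DNA at TTCG motifs, the CG included. Its close relative AIRE turns on genes of other tissues in thymic epithelium, and DEAF1 has been studied in pancreatic lymph nodes, where stromal cells show such antigens to T cells and help to keep T cells that recognise the pancreas in check. EIF4G3, a scaffold of the translation initiation complex, is encoded by one of the genes DEAF1 is known to regulate in this setting.

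The 3 arrays did not resemble each other equally. Across genes the ratios of replicates 1 and 3 correlated at r = 0.58, those of replicates 1 and 2 at 0.17 and those of replicates 2 and 3 at 0.08. Brightness in a single dye is another measure: the pool channels correlated at 0.998 to 0.999 and the knockout channels at 0.978 to 0.988. The pool was therefore taken to be shared by the 3 arrays, which leaves the spread between wild-type mice out of every test, and no array had the dyes exchanged. The node of replicate 2 differed from the pool in sex-linked genes: Xist, expressed from the inactive X chromosome of females, had ratios of −0.40, 5.32 and 0.33 in replicates 1, 2 and 3, and the Y-linked gene Ddx3y had ratios of 0.91, −3.89 and 0.62. Sex and replicate 2 cannot be told apart, and sex-linked genes are left out below. Lymph node markers were present: genes of B cells (Ms4a1, Cd79a), T cells (Cd3e, Cd4, Cd8a) and nodal stroma and vessels (Ccl19, Glycam1, Lyve1) were well above background in both channels of all 3 arrays.

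Of the 7593 genes of 1 sign, 462 were called, 215 higher and 247 lower in the knockout. Among all genes tested 2.61% were called, 1.24% as higher and 1.37% as lower. The changes were mostly small: the median ratio was 0.43 among the 215 and −0.48 among the 247, and 7 of the rises and 18 of the falls exceeded 1 in size. In the probes themselves the groups differed in base composition, with a median GC content of 38.3% for the called rises, 45.0% for the called falls and 43.3% for all autosomal genes. With the trend of ratio on GC content removed from each array, 174 rises and 181 falls were called, and of the called genes that the naming rules chose, 52 kept the call and 11 lost it. The counts depended on single arrays. Without replicate 1, 2 or 3 of 12 weeks there were 3, 952 and 32 called rises and 15, 841 and 99 called falls. Leaving out a 30-week array gave 7 to 100 rises and 24 to 122 falls, and either 4-week array 119 rises and 140 falls, since those arrays enter the estimate of the spread. With median centring in place of loess the median of all genes stood at 0.42 instead of 0.02, 9390 rises and 506 falls were called, and the mean turned positive for Aire, Mylk, Scd1, Fasn, Il7r, Cd8b1, Lef1, Tie1, Siglec1, C1qb, Cx3cl1 and Eif4g1, which are given as lower below. Called in every one of the 8 fits without 1 array were 14 genes, 3 higher (Gdpd3, Ccnd1 and Rpl12) and 11 lower (Tmem80, Itga8, Cpxm2, Ercc4, Eif4g3, Igkv19-93, Prg2, Myh8, Ncr1, Lgals4 and Myh2). Myh8, Lgals4 and Rpl12 were singled out after these values were seen.

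**Figure D1:**
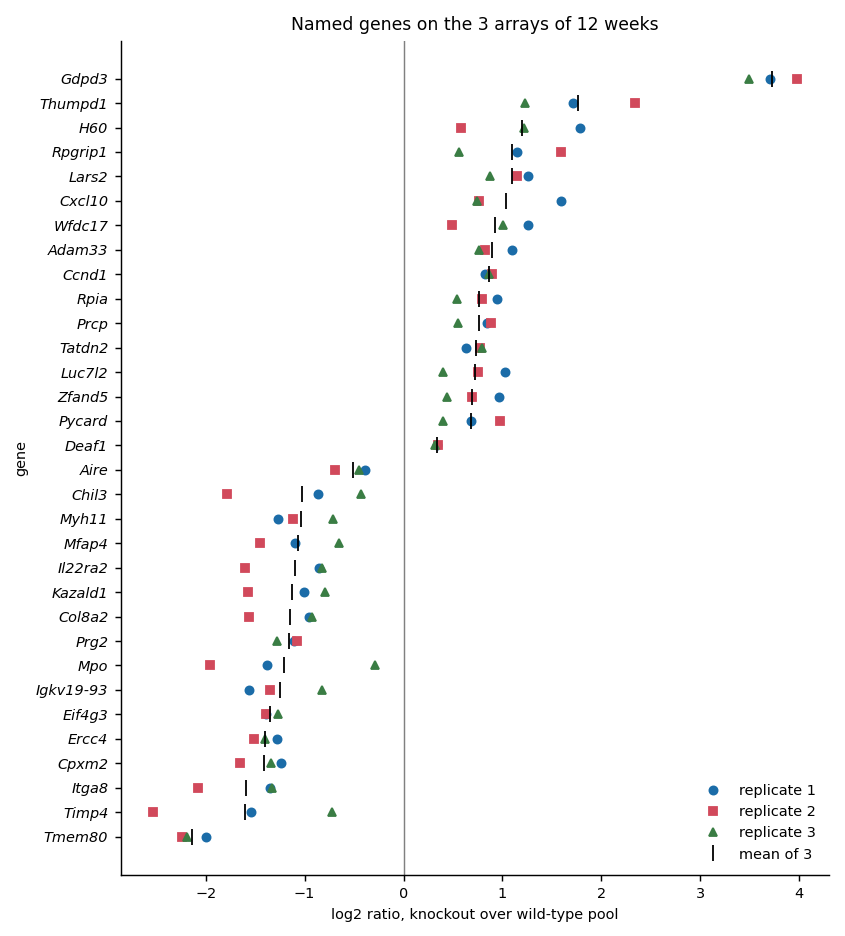
Log2 ratio of knockout over wild-type pool (x axis) for Deaf1, Aire and Eif4g3 and the 15 largest called rises and 15 largest called falls (y axis); symbols are the 3 arrays of 12 weeks and ticks their mean. Gdpd3 stands at 3.49 to 3.98 and Tmem80 at −2.24 to −2.0, while Timp4 and Mpo spread widely between replicates 2 and 3.

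Eif4g3 had ratios of −1.39, −1.39 and −1.27 in replicates 1, 2 and 3. The 3 nodes lay close together and below the pool, with a mean of −1.35 ± 0.07 (SE, n = 3; adjusted p = 0.00038), a 2.55-fold lower brightness. Its second probe read −1.75, −1.45 and −1.44. Ercc4, which encodes the XPF endonuclease of nucleotide excision repair, had ratios of −1.28, −1.51 and −1.40 and a mean of −1.40 ± 0.09 (SE; adjusted p = 0.0011). A second Ercc4 probe, not well above background in the knockout, read −0.15, −0.40 and −0.39. Tmem80, which encodes a membrane protein, fell furthest, with −2.0, −2.24 and −2.19 and a mean of −2.14 ± 0.19 (SE; adjusted p = 0.0061), 4.41-fold lower in brightness. All 3 nodes lay below the pool for each of these genes. Ercc4 was the only one of 14 nucleotide excision repair genes called (list median −0.05). Eif4g3 was the only one of 16 genes of the eIF4F complex and its partners (median −0.06). Over all genes tested 2.61% were called, so lists this short can hold no further call and these counts say little about the other members. Eif4g1, the sister scaffold of Eif4g3, had −0.97, −0.32 and −0.31 (adjusted p = 0.057), and Pabpc1, which binds poly(A) tails, had 0.50, 0.54 and 0.34 (adjusted p = 0.059).

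The 250 bases before the start of 5 of the largest changes are given because they show how the TTCG motif is spread among them. They are from RefSeq (GRCm38.p6), on the gene's own strand from 5′ to 3′, with TTCG and its reverse complement CGAA in capitals: Eif4g3 at chr4:137993205-137993454 (+), Tmem80 at chr7:141327880-141328129 (+), Ercc4 at chr16:13109486-13109735 (+), Itga8 at chr2:12301945-12302194 (−) and Gdpd3 at chr7:126766164-126766413 (+).
Eif4g3: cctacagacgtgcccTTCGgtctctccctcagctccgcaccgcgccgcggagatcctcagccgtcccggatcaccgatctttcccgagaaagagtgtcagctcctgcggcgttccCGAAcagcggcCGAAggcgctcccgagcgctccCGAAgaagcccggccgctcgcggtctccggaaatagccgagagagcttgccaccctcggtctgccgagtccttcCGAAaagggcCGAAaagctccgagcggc
Tmem80: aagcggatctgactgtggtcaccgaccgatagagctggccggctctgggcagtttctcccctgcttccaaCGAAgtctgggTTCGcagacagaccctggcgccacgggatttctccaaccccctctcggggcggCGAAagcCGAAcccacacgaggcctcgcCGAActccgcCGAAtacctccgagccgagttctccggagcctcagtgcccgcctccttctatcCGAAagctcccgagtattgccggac
Ercc4: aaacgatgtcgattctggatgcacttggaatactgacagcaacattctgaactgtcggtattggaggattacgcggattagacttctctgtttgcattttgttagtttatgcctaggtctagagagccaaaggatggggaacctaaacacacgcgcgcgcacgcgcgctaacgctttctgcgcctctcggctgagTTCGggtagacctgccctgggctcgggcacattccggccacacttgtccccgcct
Itga8: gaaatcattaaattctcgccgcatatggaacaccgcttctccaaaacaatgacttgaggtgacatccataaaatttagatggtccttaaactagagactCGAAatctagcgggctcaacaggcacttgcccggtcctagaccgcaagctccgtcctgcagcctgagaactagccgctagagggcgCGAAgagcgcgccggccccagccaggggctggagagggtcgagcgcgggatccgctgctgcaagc
Gdpd3: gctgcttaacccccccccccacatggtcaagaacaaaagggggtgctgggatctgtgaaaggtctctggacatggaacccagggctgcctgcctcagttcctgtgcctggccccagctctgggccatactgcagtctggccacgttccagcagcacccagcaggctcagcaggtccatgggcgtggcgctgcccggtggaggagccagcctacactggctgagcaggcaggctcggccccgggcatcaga

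Eif4g3 carried 6 matches, Tmem80 7, Ercc4 1, Itga8 2 and Gdpd3 none in these windows. A match on either strand was present in 38.6% of all 27025 promoter windows of that length in the table and in 50.4% of the 11365 windows matched to autosomal genes tested (first entry per gene). It was present in 71 of 130 matched windows of called rises (54.6%) and in 79 of 170 of called falls (46.5%). At least 2 matches were found in 19.2% of the windows of genes tested, in 22.3% of those of called rises and in 18.8% of those of called falls. A match is a description of the letters, not a binding site.

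Gdpd3, which encodes a lysophospholipase D, rose furthest. Its ratios were 3.71, 3.98 and 3.49, all far above 0, with a mean of 3.73 ± 0.19 (SE; adjusted p = 0.00038), a 13.3-fold higher brightness in the knockout. Ccnd1, which encodes cyclin D1 of the G1 phase, had 0.83, 0.89 and 0.86 and a mean of 0.86 ± 0.07 (SE; adjusted p = 0.0031). The 3 nodes were nearly equal, with an SD of 0.03. Ccnd1 was the only one of 17 G1 cyclins and inhibitors called, beside 2.61% of all genes tested. Lars2, the mitochondrial leucyl-tRNA synthetase gene, had 1.26, 1.15 and 0.88 (adjusted p = 0.022). Its probe was very bright, at log2 16.8 to 18.1 over both channels. No further Lars2 probe passed the filter, and signal shared with other RNA was not tested. Rpia, an enzyme of the pentose phosphate pathway, had 0.94, 0.80 and 0.54 (adjusted p = 0.0093). Both were higher in all 3 nodes.

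Several rises could be set against a further probe of the same gene. H60, a ligand of the killer-cell receptor NKG2D that differs between mouse strains and belongs to a family of similar genes, had 1.78, 0.59 and 1.22 (adjusted p = 0.028), and its second probe had 1.00, 0.47 and 0.76. Pycard, the inflammasome adaptor ASC, had 0.68, 0.98 and 0.40 (adjusted p = 0.028), with 0.88, 1.13 and 0.50 on the second probe. Prcp, a lysosomal carboxypeptidase gene, had 0.84, 0.88 and 0.55, with 0.81, 0.76 and 0.61 on the second. For these 3 genes, and for Rpgrip1, a gene of photoreceptor cilia (mean 1.10 ± 0.22, SE), both probes were higher on every array. Thumpd1, which acts in tRNA acetylation, had 1.72, 2.34 and 1.23 (adjusted p = 0.039) on its brighter probe but 0.23, −0.04 and 0.03 on the other. The metalloprotease gene Adam33 (mean 0.89 ± 0.10, SE), the ubiquitin-binding Zfand5 (0.70 ± 0.11) and the splicing factor gene Luc7l2 (0.73 ± 0.12) likewise had at least 1 further probe without the same sign on all 3 arrays. Of the 30 genes with the largest changes, 13 had another probe above the filter, and in 9 every such probe had the same sign on all 3 arrays.

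Chromosome 7, which carries Deaf1, held the largest share of called genes: 66 of 1393 (4.74%), against 2.43% over the other autosomes and 4.40% on chromosome 14, the next highest. Of 327 chromosome 7 genes from 20 Mb before the Deaf1 probe to the chromosome's end, 25 were called (7.65%; 13 higher and 12 lower), against 41 of 1060 farther away (3.87%). Gdpd3, Pycard, Cpxm2 and Ccnd1 are among the 25. Within 1 Mb of the Deaf1 probe 5 of 64 genes were called: Syce1, a gene of the meiotic synaptonemal complex (mean −0.78), Irf7 (−0.55), Deaf1 itself (0.34), Tmem80 and the ribosomal protein gene Rplp2 (0.32). Syce1 and Rplp2 were named after their values were seen, and Syce1 was not well above background in the knockout, so its fall is at least 1.67-fold. Tmem80 lies beside Deaf1: their probes are 0.035 Mb apart, and of the promoter windows listed for Deaf1 in RefSeq the second shares 96 bases with the window of Tmem80 on the opposite strand. These shares are descriptions, and the part of alleles linked to the targeted locus was not tested.

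**Figure D2:**
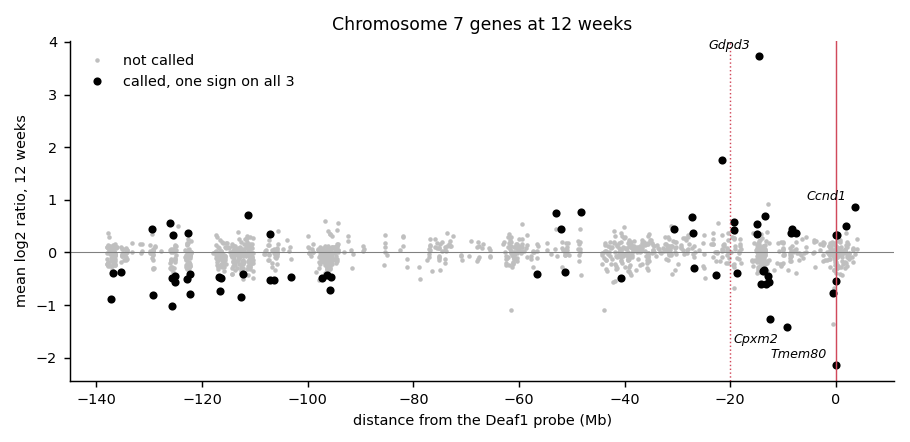
Mean log2 ratio at 12 weeks (y axis) of chromosome 7 genes by the distance of their probe from the Deaf1 probe in Mb (x axis; solid line at Deaf1, dotted line 20 Mb before it); black points were called with 1 sign on all 3 arrays. Called genes make up 7.65% of genes to the right of the dotted line and 3.87% to its left.

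Deaf1 itself read 0.34, 0.35 and 0.32 in the knockout, a mean of 0.34 ± 0.06 (SE; adjusted p = 0.034), slightly above the pool on all 3 arrays, and kept this call in 4 of the 8 fits without 1 array. Its second probe, at another position of the gene, read 0.12, 0.15 and 0.18. The deposited coordinates (mm8) place the probes at chr7:141152927-141152986 and chr7:141166259-141172439. Which part of the gene was removed is not given in the sources used here, so a probe outside it would not check the genotype. Aire, the relative of Deaf1 that drives tissue antigens in the thymus, had −0.39, −0.69 and −0.45 and a mean of −0.51 ± 0.10 (SE; adjusted p = 0.047), lower in all 3 nodes. That call was lost in each of the 8 fits without 1 array, as were the calls of Lum, Lat, Cx3cl1 and Rpl11 given below. Others given below, among them Mylk, Scd1, Irf7, Prg3 and Krt10, kept their call in only 1 of the 8. Of 8 SAND-domain genes measured Deaf1 and Aire were the only ones called, and the list median was 0.09.

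Genes of other tissues, the class of antigens for which DEAF1 and AIRE are studied, held few calls in the lists given here. Many members were not measured: 9 of 18 listed islet genes and 6 of 19 listed liver and gut genes were. Pancreatic acinar genes, whose array medians differed more, are given further below. Of 9 islet genes none was called, with array medians of 0.08, 0.04 and 0.04, and only 3 of the 9 were well above background in the pool on all 3 arrays. None of 6 liver and gut genes and none of 8 nervous system genes was called, and their medians were −0.13 and −0.07. Of 11 skin and pigment genes 1 was called: the keratin gene Krt10, with 0.35, 0.29 and 0.26 (adjusted p = 0.047), but −0.10, −0.09 and 0.04 on its second probe. The epithelial keratins Krt8 (−0.71, −2.14 and −0.04; adjusted p = 0.42), Krt18 (−0.83, −2.43 and −0.13; adjusted p = 0.38) and Krt5 (−0.50, −1.47 and −0.27; adjusted p = 0.30) were below 0 on all 3 arrays, lowest in replicate 2, and did not pass. Over all genes tested the median ratio was 0.02.

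Genes of contractile cells were among the falls. Of 12 smooth muscle and pericyte genes 4 were called, all lower, and 8 were below 0 on all 3 arrays, as were 3292 of 17683 autosomal genes. The list median was −0.41, against 0.02 over all genes. Myh11, the smooth muscle myosin heavy chain, had −1.27, −1.12 and −0.71 (adjusted p = 0.0087). Des, which encodes desmin, had −0.93, −0.84 and −0.26 (adjusted p = 0.034), and Mylk, the myosin light chain kinase gene, had −0.80, −0.42 and −0.27 (adjusted p = 0.047). Replicate 3 lay nearest to the pool for each of these. Myocd, the coactivator that turns on smooth muscle genes, was well above background only in the pool and was at least 1.28-fold lower in the knockout (adjusted p = 0.028; measured ratios −0.36, −0.34 and −0.44). The summed brightness of the 12 genes was 15397, 15512 and 19893 units in the knockout nodes and 23095, 23724 and 23353 units in the pool channels. Those channels are taken as repeats of 1 pool, so they do not show the spread between wild-type mice.

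Itga8, the integrin alpha 8 chain found on myofibroblasts and smooth muscle, fell further, with −1.35, −2.08 and −1.33 and a mean of −1.59 ± 0.15 (SE; adjusted p = 0.0067). Its second probe had −1.25, −1.91 and −1.24, and it was the only one of 22 integrins called, beside 2.61% of all genes tested. Secreted matrix genes fell beside it: Timp4, an inhibitor of matrix metalloproteases (−1.54, −2.53 and −0.73; adjusted p = 0.032), Cpxm2, a carboxypeptidase-like protein (−1.23, −1.65 and −1.34; adjusted p = 0.0042), the microfibril gene Mfap4 (−1.09, −1.45 and −0.65; adjusted p = 0.022) and the collagen gene Col8a2 (−0.96, −1.56 and −0.93; adjusted p = 0.019). Replicate 2 was the lowest node for each of these genes. Matrix as a whole did not move one way, since the lists of collagens, matrix proteins and matrix proteases had medians of −0.05, −0.04 and 0.09. Called higher in them were Fbn1, which encodes fibrillin 1 (mean 0.48 ± 0.09, SE), and Adam33, as given above. The second Fbn1 probe had 0.16, 0.17 and −0.13. Lum, which encodes lumican and is in the list of reticular cells, rose by a mean of 0.47 ± 0.09 (SE; adjusted p = 0.046). Of 18 genes of blood and high endothelium 2 were called, both lower, 5 were below and 4 above 0 on all 3 arrays, and the list median was −0.11. The called genes were Chst4, the sulfotransferase that completes L-selectin ligands in high endothelial venules (−0.68, −0.47 and −0.43; adjusted p = 0.032), and the endothelial receptor gene Tie1 (−0.32, −0.30 and −0.35; adjusted p = 0.037). Not called were Glycam1, a ligand of L-selectin in the same venules (0.21, 2.98 and 0.12; adjusted p = 0.19), and the P-selectin gene Selp (0.41, 0.19 and 0.19; adjusted p = 0.092).

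Skeletal muscle genes included small, even falls. Myh2 and Acta1 were the 2 called of 8 measured, with −0.69, −0.67 and −0.64 (adjusted p = 0.0065) and −0.50, −0.54 and −0.44 (adjusted p = 0.021). Myh2 was near the floor in the knockout: it was well above background in 2 of the 3 nodes, and its second probe in 1. A channel near the floor can vary little, so the evenness of the Myh2 ratios has limited meaning. The list median was −0.13, and its summed brightness was 1542 to 1734 units in the knockout and 1742 to 1858 units in the pool. Myh8, another skeletal myosin gene outside the list, had −0.82, −1.07 and −0.80 (adjusted p = 0.0065). The fat cell genes differed more between nodes.

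Of 21 fat cell genes 1 was called, the desaturase gene Scd1 (−0.83, −0.76 and −0.38; adjusted p = 0.047), and 11 were below 0 on all 3 arrays. Over all autosomal genes 3292 of 17683 were below 0 on all 3. The list medians were −0.98 in replicate 1, −0.84 in replicate 2 and −0.02 in replicate 3. Plin1, the coat protein of lipid droplets, had −1.53, −1.60 and −0.18 (adjusted p = 0.077), Thrsp, a regulator of lipid synthesis, −1.92, −0.999 and −0.37 (adjusted p = 0.075), and the fatty acid synthase gene Fasn −0.86, −0.70 and −0.17 (adjusted p = 0.072). Replicates 1 and 2 lay far below the pool and replicate 3 next to it, as the sums also show: 39486, 40227 and 84224 units in the 3 knockout nodes against 79240 to 85253 in the pool. All 21 genes were well above background in the pool and 20 in the knockout. Pancreatic acinar genes, 0 of 19 called, had medians of −0.31, 0.18 and 0.60, and sums of 1895, 2566 and 3492 units against 2179 to 2220 in the pool. The test takes its spread from all ages, and some acinar genes varied widely between the 30-week arrays. In 1 of them the SE of the 12-week mean was 1.47, so the test could hardly call such genes. The part of adjoining fat and pancreas in the results of other groups was not tested.

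**Figure D3:**
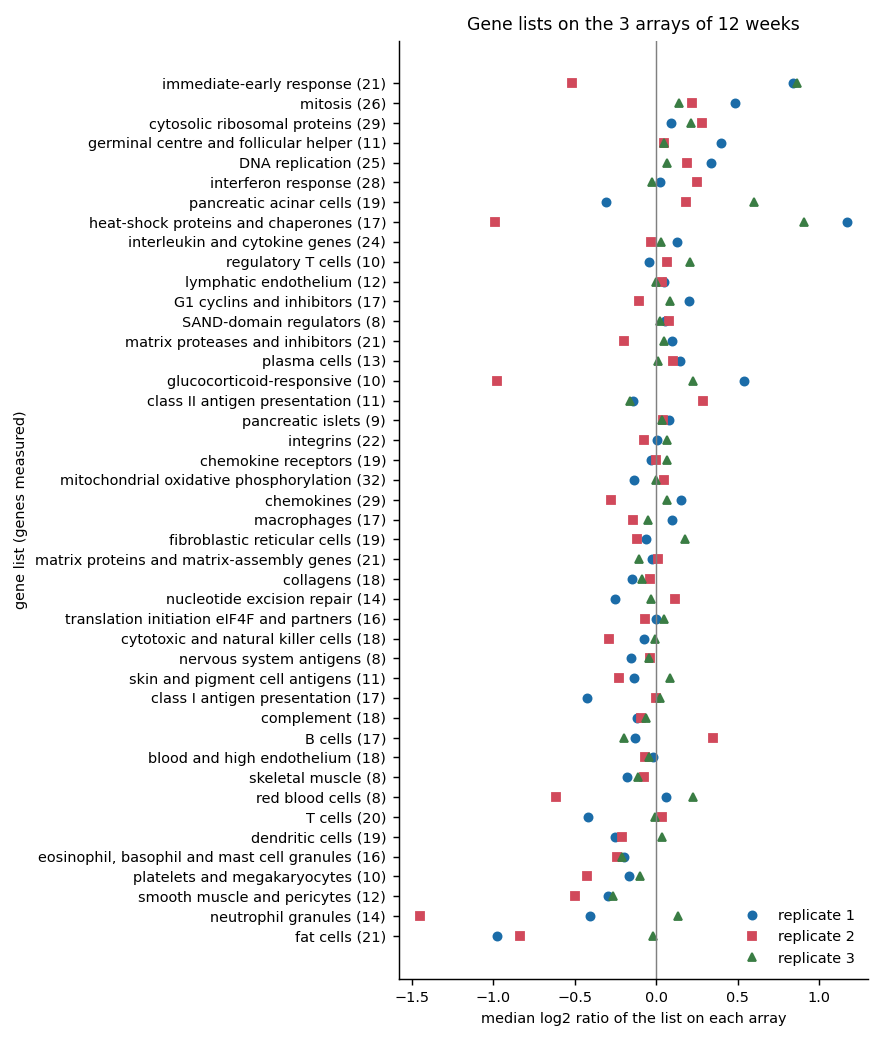
Median log2 ratio (x axis) of each gene list with at least 8 autosomal genes measured (y axis, number measured in brackets) on each of the 3 arrays of 12 weeks, ordered by the median of the mean ratios. The fat cell and neutrophil granule lists and the immediate-early and heat-shock lists spread widely between arrays, whereas the lists of smooth muscle and of eosinophil, basophil and mast cell granules lie below 0 on all 3.

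Granule genes of eosinophils, basophils and mast cells were also among the falls. Of 16 measured 3 were called, all lower, and 11 were below 0 on all 3 arrays, beside 3292 of 17683 autosomal genes. The array medians were −0.20, −0.24 and −0.21. Prg2, the eosinophil major basic protein gene, had −1.11, −1.08 and −1.28 and a mean of −1.16 ± 0.09 (SE; adjusted p = 0.0032). Prg3, its close relative, had −1.14, −0.29 and −0.89 (adjusted p = 0.047), and the mast cell chymase gene Cma1 had −0.62, −0.998 and −0.95 (adjusted p = 0.022). The knockout nodes summed to 2771 to 2942 units of brightness and the pool to 3884 to 3972. Neutrophil granule genes were less even: Mpo, which encodes myeloperoxidase, had −1.38, −1.96 and −0.29 (adjusted p = 0.047) and Chil3, the chitinase-like protein Ym1, −0.87, −1.78 and −0.43 (adjusted p = 0.047), and these were the 2 called of 14. The neutrophil list had medians of −0.41, −1.45 and 0.13, its sum in replicate 3 (26480 units) exceeded the pool (16319 to 18531 units), and the cathepsin G gene Ctsg (−0.79, −1.12 and −0.12) did not pass (adjusted p = 0.063). Of 10 platelet genes Itga2b, the integrin chain of the fibrinogen receptor, was called (−0.58, −0.39 and −0.28; adjusted p = 0.042) and 6 were below 0 on all 3 arrays; Ppbp, a platelet chemokine gene, had −0.22, −1.74 and −0.43 (adjusted p = 0.11).

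Calls among lymphocyte genes came mainly from the T cell list. Over all genes tested 2.61% were called, and at that share lists as short as these can hold none. None of 17 B cell genes and none of 11 germinal centre and follicular helper genes was called, and of 13 plasma cell genes Irf4, a transcription factor of activated lymphocytes and plasma cells, was called higher (0.53, 0.49 and 0.42; adjusted p = 0.041). The immunoglobulin kappa segment Igkv19-93 fell, with −1.57, −1.35 and −0.82 and a mean of −1.25 ± 0.12 (SE; adjusted p = 0.0087); its probe may share signal with similar segments. Of 20 T cell genes 3 were called lower and 1 higher. The interleukin 7 receptor gene Il7r had −0.32, −0.64 and −0.67 (adjusted p = 0.028), the CD8 beta chain gene Cd8b1 −0.68, −0.48 and −0.48 (adjusted p = 0.029), the transcription factor gene Lef1 −0.65, −0.22 and −0.57 (adjusted p = 0.047) and the receptor adaptor gene Lat 0.29, 0.46 and 0.31 (adjusted p = 0.046). One of the 2 further Il7r probes and both further Lef1 probes did not have the same sign on all arrays.

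Among 18 genes of cytotoxic and natural killer cells the activating receptor gene Ncr1 (NKp46) fell most, with −1.15, −0.76 and −0.75 and a mean of −0.89 ± 0.10 (SE; adjusted p = 0.010). Klrb1c, which encodes the NK1.1 antigen, had −0.50, −0.58 and −0.43 (adjusted p = 0.033), and Cst7, the inhibitor cystatin F, had 0.59, 0.37 and 0.59 (adjusted p = 0.039), so that calls in this list ran both ways and its median was −0.06. Ncr1 kept its call without any single array. Of 17 macrophage genes 1 was called: Siglec1, the adhesion receptor of sinus macrophages, had −0.35, −0.44 and −0.63 (adjusted p = 0.028), but its second probe had 0.31, −0.08 and −0.03. The complement gene C1qb had −0.53, −0.39 and −0.30 (adjusted p = 0.051), and none of 19 dendritic cell genes was called.

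Cytokine and interferon genes also ran both ways. Cxcl10, an interferon-induced chemokine gene, had 1.59, 0.77 and 0.74 and a mean of 1.03 ± 0.19 (SE; adjusted p = 0.039), whereas Irf7, the transcription factor that amplifies type I interferon production, had −0.67, −0.25 and −0.73 (adjusted p = 0.041). They were the only 2 of 28 interferon-response genes called, and the list medians were 0.02, 0.25 and −0.02. Cx3cl1, the membrane-bound chemokine fractalkine, fell (−0.37, −0.36 and −0.30; adjusted p = 0.047). Il22ra2, the soluble decoy receptor of interleukin 22, had −0.85, −1.61 and −0.83 (adjusted p = 0.028), lower on both probes in all 3 nodes. The chemokine-like receptor gene Ccrl2 rose (0.42, 0.19 and 0.33; adjusted p = 0.047), with −0.07, 0.04 and 0.24 on its second probe, and Wfdc17, a secreted inhibitor of activated macrophages, had 1.26, 0.49 and 1.01 (adjusted p = 0.035). Il6 had 2.39, 0.07 and 1.11 (adjusted p = 0.084), with the pool not well above background on any of the 3 arrays.

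Cytosolic ribosomal protein genes rose in part: 4 of 29 were called, all higher, and 17 were above 0 on all 3 arrays, with a list median of 0.20. Rps7 had 0.85, 0.66 and 0.53 (adjusted p = 0.025), Rps20 0.63, 0.70 and 0.49 (adjusted p = 0.026), Rpl7 0.37, 0.57 and 0.39 (adjusted p = 0.036) and Rpl11 0.32, 0.40 and 0.28 (adjusted p = 0.047). The second Rpl11 probe had 0.42, 0.39 and −0.05. Rpl12, outside the list, had 0.50, 0.60 and 0.62 (adjusted p = 0.0087). Processed copies of these genes are many, and the probes may not separate them. Cell division genes leaned the same way without passing: 18 of 26 mitosis genes and 15 of 25 DNA replication genes were above 0 on all 3 arrays. Their medians were 0.30 and 0.17, and none was called. Over all autosomal genes 4301 of 17683 were above 0 on all 3 arrays, which also stands beside the ribosomal count. The mitotic kinesin gene Kif11 had 0.37, 0.37 and 0.36 (adjusted p = 0.050), the mitotic kinase gene Cdk1 0.57, 0.38 and 0.26 (adjusted p = 0.068) and the replicative helicase genes Mcm2 and Mcm4 had means of 0.38 ± 0.08 and 0.38 ± 0.08 (SE; adjusted p = 0.051 and 0.055).

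The sign rule removed a large set of genes. In 4646 autosomal genes replicate 2 had the opposite sign to both others, against 2859 for replicate 1 and 2568 for replicate 3. In 22 genes the 3 ratios all exceeded 1 in size with replicate 2 opposed, and in all 22 replicates 1 and 3 were the high ones. Hspa1a, the stress-induced chaperone HSP70, had 2.70, −5.26 and 2.83: its log2 brightness was 15.16, 7.73 and 15.51 in the knockout nodes and 12.46 to 12.99 in the pool. The chemokine genes Ccl7 (2.96, −1.87 and 2.70), Cxcl1 (2.27, −1.13 and 3.02) and Ccl2 (2.33, −2.47 and 2.30) followed the same order. So did the cochaperone genes Dnajb1 (2.09, −2.31 and 2.43) and Bag3 (1.98, −1.12 and 1.91) and the early-response genes Nr4a1 (2.09, −1.27 and 2.21), Errfi1 (2.08, −2.54 and 1.97) and Dusp1 (1.94, −1.31 and 1.96). Array medians were 0.84, −0.52 and 0.87 for 21 immediate-early genes, 1.17, −0.99 and 0.91 for 17 heat-shock genes and 0.54, −0.98 and 0.23 for 10 glucocorticoid-responsive genes. Of these lists only Fosb, a subunit of AP-1, was called (0.42, 0.21 and 0.48; adjusted p = 0.041). The cause of the order was not tested.

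**Figure D4:**
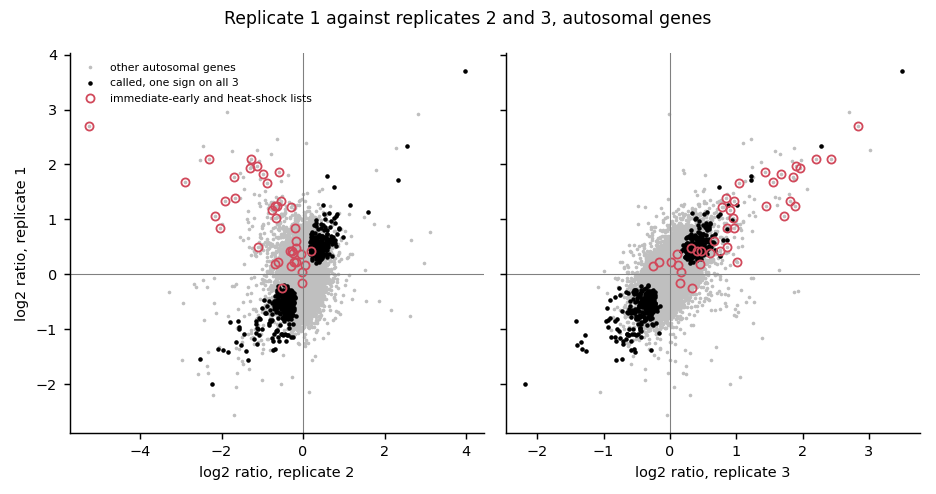
Log2 ratio of each autosomal gene in replicate 1 (y axis) against replicate 2 (left) and replicate 3 (right); black points were called with 1 sign on all 3 arrays, and open circles are the immediate-early and heat-shock lists. Most open circles lie at high replicate 1 and low replicate 2 values on the left and along the rising diagonal on the right.

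At the border of the sign rule, Rpl5 was kept with 0.0000055, 0.77 and 0.58 and Ssna1 with −0.38, −0.000011 and −0.11. Rps9 was left out with −0.64, −0.11 and 0.000034, and Plpp5 with 0.50, −0.000046 and 0.033. Ratios this near 0 have no measurable sign, so membership of such genes is arbitrary.

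No gene's 12-week ratio differed from the mean of the other ages at an adjusted p under 0.05 (0 of 18408 genes, limma, two-sided, background 0%). The smallest adjusted p was 0.062, and 2981 genes had an unadjusted p under 0.05, of which 170 were among the 462 called at 12 weeks. Among the genes named above, Myh2 and Itga8 shared that value. Myh2 averaged −0.67 at 12 weeks, 0.05 at 4 weeks and 0.02 at 30 weeks, a difference of −0.70 ± 0.08 (SE). Its knockout signal at 12 weeks was near the floor, as given above. Itga8 averaged −1.59 at 12 weeks, −0.18 at 4 weeks and 0.07 at 30 weeks, a difference of −1.54 ± 0.19 (SE). Cpxm2 (difference −1.12 ± 0.15; adjusted p = 0.068), Tatdn2, a nuclease-like gene (1.28 ± 0.17; adjusted p = 0.068), Prg2 (−0.75 ± 0.12; adjusted p = 0.070), Gdpd3 (1.54 ± 0.25; adjusted p = 0.070) and Il7r (−0.64 ± 0.11; adjusted p = 0.072) also missed the threshold. For Prg2, Gdpd3 and Il7r the 12-week ratios overlapped those of another age, so these differences do not set 12 weeks apart from both. Gdpd3 ran from 2.59 to 3.81 at 4 weeks, 3.49 to 3.98 at 12 weeks and 1.12 to 1.23 at 30 weeks. Its pool was well above background on only 1 array of 4 weeks. At 30 weeks Prg2 ran from −1.12 to −0.77 and Il7r from −0.50 to −0.32. At 12 weeks they ran from −1.28 to −1.08 and from −0.67 to −0.32. Replicate 1 of 30 weeks shared its slide with the 12-week arrays, and against it alone, with no test, the differences were −1.69 for Itga8, −0.85 for Cpxm2, 1.25 for Tatdn2, −0.04 for Prg2 and 2.49 for Gdpd3. Each age also had its own pool. Both 4-week arrays were on another slide than the 12-week arrays and were read on another scanner with another software version. In the pool channel 51.6% and 37.2% of probes were well above background on the 4-week arrays, against 60.8% to 62.6% at 12 weeks. Age and pool can therefore not be told apart, nor, for 4 weeks, age and slide or scanner.

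Some changes at 12 weeks were also seen at the other ages, where their size was not tested against 12 weeks one age at a time. Eif4g3 averaged −0.97 at 4 weeks and −1.49 at 30 weeks, Ercc4 −1.38 and −1.08, and Tmem80 −1.69 and −2.07, beside −1.35, −1.40 and −2.14 at 12 weeks. Ccnd1 averaged 0.65 and 0.57, beside 0.86. A further set stepped down with age without overlap between the arrays of 4, 12 and 30 weeks: Rpgrip1, Adam33, Prcp, Zfand5 and Igkv19-93. These were 5 of the 30 genes with the largest changes, and 3.57% of autosomal genes had such an order. The 30 genes were chosen by large ratios and a small spread on these same arrays, which itself favours ages without overlap. Their share can therefore not show an excess. A step between 4 and 12 weeks can also not be told apart from the change of pool, slide and scanner. Prcp ran from 1.10 to 1.45 at 4 weeks, 0.55 to 0.88 at 12 weeks and −0.32 to 0.16 at 30 weeks, and Rpgrip1 from 1.73 to 1.99, 0.56 to 1.59 and −0.96 to 0.08. Adam33 ran from 1.90 to 2.39, 0.76 to 1.09 and −0.46 to −0.26, but its pool was not well above background at 4 weeks. The opposite order, rising with age without overlap, was seen in none of the 30 genes and in 2.67% of autosomal genes.

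**Figure D5:**
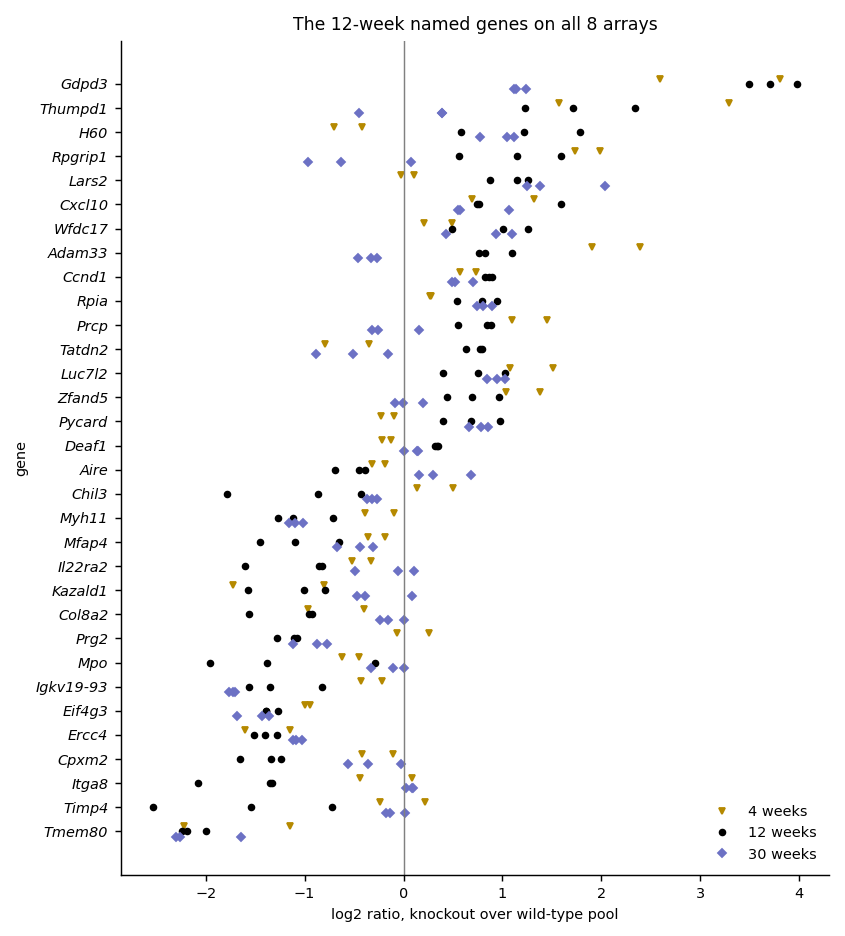
Log2 ratio of knockout over pool (x axis) on each of the 8 arrays for the same named genes (y axis); triangles are 4 weeks, circles 12 weeks and diamonds 30 weeks. Eif4g3, Ercc4 and Tmem80 lie below 0 at every age, whereas the 12-week points of Itga8, Timp4 and Cpxm2 stand below those of the other ages.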

How the data were processed

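Per the labels' protocols, RNA of each node was purified by Trizol and an RNeasy kit, amplified with dye and put on Agilent arrays of 2 colours. Each array has a deposited scanner file with, per the file headers, the mean and local background brightness of each spot (intensity), a log10 ratio of red over green processed signal and quality flags. The authors' deposited value table holds log2 ratios and served as an alternative, as did the scanner's log10 ratio; the software behind that table is not given in the sources used here.

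With limma 3.58.1 in R 4.3.3, mean intensity was corrected with normexp (offset 50) against the median background and loess-normalised within each array, with control spots at weight 0. Flagged outlier spots were dropped and spots of a probe averaged. Of 41174 probes, 27464 passed the filter, which asked that every array of some age had the probe well above background in one and the same dye, and each gene took its brightest probe. The model gave each age its own mean over the 8 arrays, so the 12-week test shares the spread of all ages (5 residual and 3.4 prior degrees of freedom); ratios were tested against 0, two-sided, and 12 weeks against the mean of 4 and 30 weeks. Missing values were dropped gene by gene: 17 autosomal genes lacked a 12-week value. Standard errors are those of the fit. The labels call the arrays of an age biological replicates. The numbers of arrays limit precision: at 12 weeks 60.8% to 62.6% of probes were well above background in the pool and 67.7% to 71.5% in the knockout, and no spot was saturated. A fold is given as "at least" where a channel was below background on all 3 arrays: the bright mean over the higher of the dim signal and the lowest signal well above background.

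Named are Deaf1, Aire and Eif4g3, the 15 largest called rises and falls with 1 sign on all 3 arrays, rows named only by an accession, clone, RIKEN or Gm number left out, up to 4 members of each of 46 gene lists with 1 sign by smallest p, and the genes of largest size with replicate 2 opposed. Results of 2 genes that these rules name are not reported here. Members and lists were chosen with earlier results of these data known. Probe names came from RefSeq through the files' accessions, symbols or synonyms; 8059 probes kept the file's name. H60 was placed by its second probe on chromosome 10. Probe positions (mm8) were taken from the scanner files of 4 weeks. Same-numbered arrays of different ages correlated in their deviations from the age means at -0.08 to 0.24, so the numbers were not taken to pair them. The scripts were tested on simulated data. Alternatives are listed in the closing section.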

Additional observations from a re-analysis of the deposited data

Results flagged for a closer look

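Among the 30 genes with the largest changes at 12 weeks, 6 had 1 sign on all 12-week arrays and the other sign on all arrays of another age. The difference given for each is the 12-week ratio minus the mean of 4 and 30 weeks, from the limma fit. For none of the 6 did its adjusted p fall under 0.05. Each age had its own pool, and the 4-week arrays also had another slide and scanner, so these cannot be told apart from age.

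Tatdn2 was higher on all 3 arrays of 12 weeks (mean 0.73) and lower on all arrays of 4 weeks (mean -0.57) and of 30 weeks (mean -0.52), with a difference of 1.28 ± 0.17 (SE; adjusted p = 0.068). Itga8 was lower at 12 weeks and slightly above 0 on all 3 arrays of 30 weeks (0.03 to 0.10), with a difference of -1.54 ± 0.19 (SE; adjusted p = 0.062). Chil3 was lower at 12 weeks and higher on both arrays of 4 weeks (0.14 to 0.50), with a difference of -1.03 ± 0.27 (SE; adjusted p = 0.11). H60 was higher at 12 weeks and lower on both arrays of 4 weeks (-0.70 to -0.42), with a difference of 0.99 ± 0.24 (SE; adjusted p = 0.10). Pycard was higher at 12 weeks and lower on both arrays of 4 weeks (-0.23 to -0.10), with a difference of 0.38 ± 0.13 (SE; adjusted p = 0.20). Adam33 was higher at 12 weeks and lower on all 3 arrays of 30 weeks (-0.46 to -0.26), but since its 4-week ratios were far higher the tested difference was -0.0056 ± 0.13 (SE; adjusted p = 0.99), and the contrast of 12 with 30 weeks alone was not tested.

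Outside the autosomal genes, Xist had a log2 ratio of 5.32 in replicate 2 of 12 weeks, against -0.40 and 0.33 in replicates 1 and 3.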

How the results depend on the processing

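The 215 called rises and 247 called falls at 12 weeks changed with the processing as follows. The scanner's own log ratio gave 99 rises and 69 falls, the authors' deposited log2 ratios gave 103 and 71, median centring only 9390 and 506, a normexp offset of 10 gave 123 and 142, and the mean of all probes of a gene gave 129 rises. With only the 12-week arrays in the fit, which leaves 2 residual degrees of freedom, 3 rises and 3 falls were called. The slide as a random block (within-slide correlation -0.26) gave 3471 and 2730, and array weights 522 and 461. The replicate block, whose numbers do not pair the samples, gave 145 rises and 157 falls. Removing the probe GC trend, no filter on dim probes and the filter on both channels left both counts within 1.5 times. Fits without 1 array ranged from 3 to 952 rises, from 15 to 841 falls and from 0 to 950 genes in the difference from the other ages. That difference, with 0 genes called, gave 3 with the scanner's log ratio, 4 with the deposited table, 1 with median centring, 8 with no filter, 2028 with the slide block and 1511 with array weights. The cause of these changes in the counts was not tested.

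Under median centring only, the mean ratio turned to 0.040 for Aire, 0.17 for Mylk, 0.081 for Scd1, 0.28 for Fasn, 0.10 for Il7r, 0.35 for Cd8b1, 0.27 for Lef1, 0.13 for Tie1, 0.19 for Siglec1, 0.26 for C1qb, 0.17 for Cx3cl1 and 0.12 for Eif4g1. No other tested gene named above changed its direction under these alternatives; the genes with replicate 2 opposed and those at the border of the sign rule were not rerun. Limits remain: 3 nodes against a pool taken to be shared, all on 1 slide, with 1 dye orientation and probes in place of transcripts.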
